A study of Rattus norvegicus with 20 samples.

Results

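The proteins described here form the mitochondrial respiratory chain and the ATP synthase of rat vocal fold tissue. The members were the probe sets whose gene symbol on the array platform starts with Nduf, Uqcr, Sdh or Atp5, or with Cox followed by a digit from 4 to 8 and a letter. The rule used names and no measured value, and it found 82 probe sets for 82 genes among the 15049 probe sets with a gene name. Vocal folds of 20 adult male Sprague-Dawley rats were measured on Affymetrix arrays, 1 animal an array. There were 5 uninjured control animals and 5 animals each at 1, 4 and 8 weeks after the lamina propria, the layer under the vocal fold epithelium, had been taken off the thyroarytenoid muscle. The labels give no genetic change and no other treatment, and the methods allow injury of one or both folds without saying which for a given animal.

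Mitochondria make most of the ATP of a muscle cell by passing electrons from complex I or complex II through complex III to complex IV, which reduces oxygen. Protons pumped on the way drive complex V, the ATP synthase. Each complex mixes a few catalytic subunits with many small accessory subunits that hold it together, and assembly factors help to build it without staying in it. Skeletal muscle is rich in mitochondria, and several complex IV subunits exist as one form for heart and muscle and another for most tissues. The values are log2 signals, so a difference is the log2 of a fold change, and signals of different probe sets are not compared with each other.

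The expression levels of respiratory chain genes were higher in part of the members at 1 week after injury. At a limma adjusted p under 0.05, 23 of 82 members (28.0%) rose at 1 week compared with the control group, against 11.2% of all named probe sets, and 2 (2.44%) fell, against 10.2%. Of the 23, 10 were accessory subunits of complex I, 2 belonged to complex III, 7 to complex IV and 4 to complex V. At 8 weeks 4 members (4.88%) rose, against 6.96% of all named probe sets. These were Ndufa2, Ndufa7 and Ndufa13, accessory subunits of complex I, and Atp5if1, the protein that stops the ATP synthase from running backwards, and they passed at 1 and 4 weeks too, in comparisons that share the same 5 control animals. Ndufa2 was not above the negative controls on any array, and its 4-week and 8-week calls and the 8-week call of Ndufa13 were lost without single arrays. With the level of the hybridization controls of each array as a covariate, 0 members passed. In that fit 20, 1 and 1 of the 15049 named probe sets rose at 1, 4 and 8 weeks, and 62, 9 and 8 fell.

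The start regions of these 4 genes and of Atp5f1d and Sdhaf2, the 2 members that fell, are shown because these are the genes on which the comparisons turn. Each runs 5′ to 3′ on the strand of the gene, from well before the RefSeq start of the gene to shortly after it. Capitals mark CCGGAAG, the motif of GA-binding protein, on either strand.
Ndufa2 (GRCr8 chr18:28631835-28632134, minus strand): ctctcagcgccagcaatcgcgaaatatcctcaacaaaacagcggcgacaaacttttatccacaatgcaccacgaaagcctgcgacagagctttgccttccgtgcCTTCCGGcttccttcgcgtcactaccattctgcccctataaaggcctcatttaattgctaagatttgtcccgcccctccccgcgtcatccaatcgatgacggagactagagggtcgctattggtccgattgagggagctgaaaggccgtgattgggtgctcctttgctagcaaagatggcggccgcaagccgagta
Ndufa7 (GRCr8 chr7:15311196-15311495, plus strand): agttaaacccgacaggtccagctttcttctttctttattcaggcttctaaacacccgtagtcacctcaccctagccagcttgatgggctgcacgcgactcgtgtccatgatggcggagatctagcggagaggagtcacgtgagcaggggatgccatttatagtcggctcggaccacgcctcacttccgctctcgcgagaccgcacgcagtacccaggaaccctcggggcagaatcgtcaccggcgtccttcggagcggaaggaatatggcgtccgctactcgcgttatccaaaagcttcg
Ndufa13 (GRCr8 chr16:19560276-19560575, plus strand): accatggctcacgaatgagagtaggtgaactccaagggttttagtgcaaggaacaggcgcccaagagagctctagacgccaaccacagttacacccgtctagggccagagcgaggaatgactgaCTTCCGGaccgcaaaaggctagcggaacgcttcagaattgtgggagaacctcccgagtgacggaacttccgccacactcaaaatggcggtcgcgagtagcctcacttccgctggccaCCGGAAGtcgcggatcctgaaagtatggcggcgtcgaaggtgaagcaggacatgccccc
Atp5if1 (GRCr8 chr5:150026628-150026927, minus strand): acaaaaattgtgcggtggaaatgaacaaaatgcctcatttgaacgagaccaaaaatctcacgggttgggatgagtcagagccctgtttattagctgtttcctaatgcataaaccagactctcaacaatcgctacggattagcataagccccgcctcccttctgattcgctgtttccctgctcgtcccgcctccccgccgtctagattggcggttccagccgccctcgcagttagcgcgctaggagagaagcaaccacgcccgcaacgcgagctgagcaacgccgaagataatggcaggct
Atp5f1d (GRCr8 chr7:10214301-10214600, minus strand): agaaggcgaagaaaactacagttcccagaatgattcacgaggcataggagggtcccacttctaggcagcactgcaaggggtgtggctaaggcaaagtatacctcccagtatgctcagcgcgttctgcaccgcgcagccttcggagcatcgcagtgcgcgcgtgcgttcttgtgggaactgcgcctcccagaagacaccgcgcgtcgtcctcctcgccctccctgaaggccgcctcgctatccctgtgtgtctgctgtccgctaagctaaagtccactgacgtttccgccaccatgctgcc
Sdhaf2 (GRCr8 chr1:216592619-216592918, minus strand): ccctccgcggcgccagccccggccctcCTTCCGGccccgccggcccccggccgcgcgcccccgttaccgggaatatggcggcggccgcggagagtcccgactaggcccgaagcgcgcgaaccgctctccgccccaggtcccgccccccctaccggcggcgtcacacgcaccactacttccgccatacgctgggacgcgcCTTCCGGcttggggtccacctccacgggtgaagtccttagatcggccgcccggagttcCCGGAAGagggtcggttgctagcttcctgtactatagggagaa

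RefSeq start regions were matched for 73 of the 82 members by gene identifier. The letters CCGGAAG stood in 24 of the 73 (32.9%) on one strand or the other, against 8.75% of 33469 start regions of the same length. These 33469 were all start regions of the RefSeq set. They were not limited to genes on the array or matched to the members in base composition. TGCGCA, a short core of the site of nuclear respiratory factor 1, stood in 21 (28.8%) against 7.24%. AAGGTCA, the motif of oestrogen-related receptors, stood in 9 (12.3%) against 4.61%. At least 1 of the 3 stood in 43 of 73 members (58.9%), against 19.0% of all start regions, and in 13 of the 22 matched members that rose at 1 week. Of the start regions shown, Ndufa13 held CCGGAAG at 2 places, Ndufa2 at 1 and Sdhaf2 at 3, and those of Ndufa7, Atp5if1 and Atp5f1d held none of the 3 motifs. A match says that these letters are there and not that a factor binds them.

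Respiratory chain genes as a whole were compared first between each injury group and the control group. At 4 weeks 10 members (12.2%) were higher, against 7.52% of all named probe sets. No member was lower at 4 or 8 weeks in limma's test, against 5.46% and 4.65%. In the main fit, the share of members that rose was above that of all named probe sets at 1 and 4 weeks. At 8 weeks it was below. The 4-week and 8-week orders depended on the setting. Without control replicate 1 or 4-week replicate 2, 4 members rose at 4 weeks beside 862 and 763 named probe sets, a lower share. Without control replicate 5 it was 21 beside 1220, a higher share. At 8 weeks 11 members rose with quantile normalization or without control replicate 5, beside 1220 and 1094, a higher share. Without control replicate 1 it was 2 beside 762, a lower share. In the main fit without the adjustment, 35, 25 and 17 members were higher at p under 0.05 at the 3 times, and 2 were lower each time. The share of all named probe sets at that unadjusted threshold is not given here or below, so these counts have no background beside them. The median difference in log2 signal over the 82 members was 0.47, 0.29 and 0.20 at 1, 4 and 8 weeks, beside 0.02, 0.04 and 0.04 over all named probe sets. The difference was above 0 for 65, 65 and 56 of the 82 members. Without 8-week replicate 1, 2 or 3 the 8-week median was 0.05, 0.09 and 0.32.

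The 5 injured animals lay above all 5 control animals for 10 members at 1 week, 7 at 4 weeks and 2 at 8 weeks, which is 12.2%, 8.54% and 2.44% of the members. Over all named probe sets the shares were 8.21%, 6.04% and 5.93%. No member had all injured animals below all controls, while 3.78%, 2.11% and 1.93% of all named probe sets did. Over the 4 groups together, limma's F statistic passed for 10 members (12.2%), against 15.4% of all named probe sets. These 10 were Ndufa1, Ndufa2, Ndufa6, Ndufa7, Ndufa13, Uqcrq, Cox7a2l, Cox8a, Atp5if1 and Atp5mg.

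Between the injury groups 0 of 82 members passed in any of the 3 comparisons. Among all named probe sets 0.126% were lower at 4 weeks than at 1 week, 0.0332% were higher and 0.199% lower at 8 weeks than at 1 week, and none differed between 4 and 8 weeks in limma's test. Without the adjustment, 3 members were lower at 8 weeks than at 1 week at p under 0.05, and 0 differed in the other two comparisons. The median difference of the members was -0.10 from 1 to 4 weeks, -0.22 from 1 to 8 weeks and -0.13 from 4 to 8 weeks. Single animals moved these medians. From 4 to 8 weeks the median was -0.26, -0.20, -0.03, -0.08 and -0.08 without 8-week replicates 1 to 5 in turn. From 1 to 8 weeks it was -0.35 without 8-week replicate 1 and -0.11 without 8-week replicate 3, and from 1 to 4 weeks -0.06 without 1-week replicate 1. For 0 members did 2 injury groups stand clear of each other, while over all named probe sets 1.03% were higher and 0.897% lower at 4 than at 1 week without overlap, 1.34% and 1.05% at 8 than at 1 week, and 0.239% and 0.14% at 8 than at 4 weeks.

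**Figure D1:**
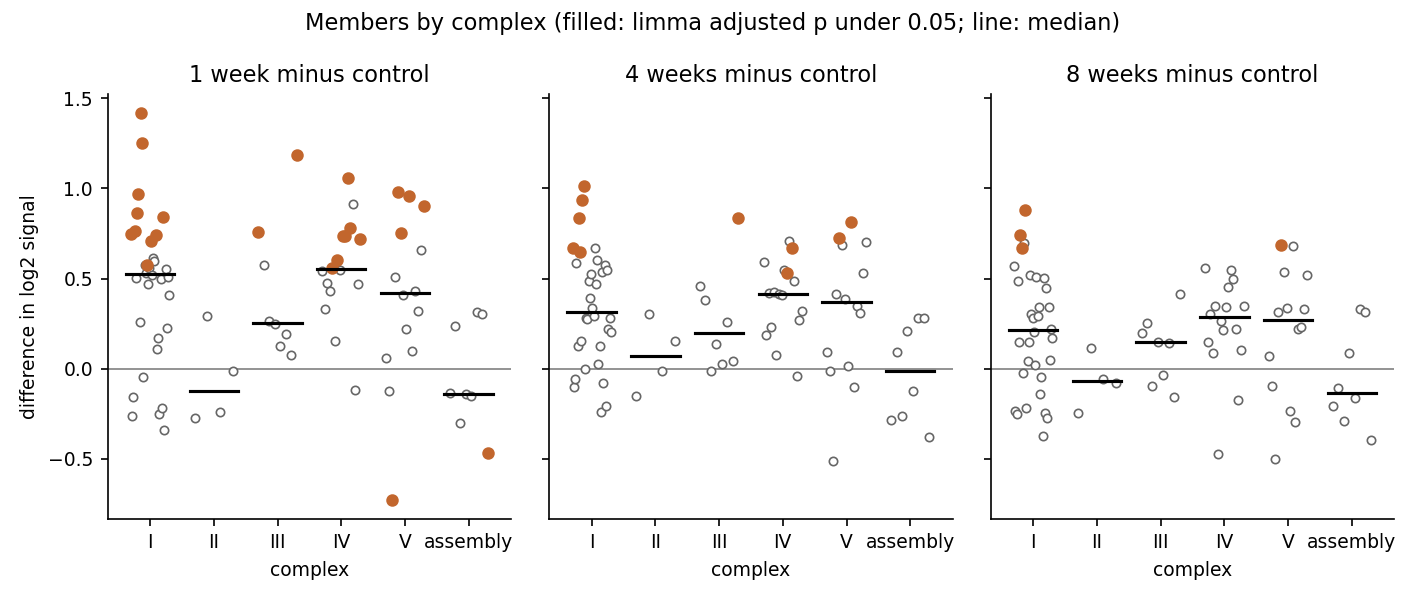
Difference in log2 signal (vertical axis) of each member between an injury group and the control group, by complex (horizontal axis), at 1, 4 and 8 weeks. Filled points passed limma's test, open points did not, and lines are medians, which for complex I are 0.53, 0.31 and 0.21.

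Squamous epithelium, which covers the vocal fold, was represented by marker genes with median log2 signals of 8.87 to 9.83 in controls and 9.31 to 10.29 in injured animals. Several properties of the arrays moved with the groups or with the members. The median log2 signal of the 82 members ranged from 6.60 to 8.09 in the control animals and from 7.32 to 8.34 in the injured animals. Control replicate 3 held the lowest value. Its array was low as a whole, with a median over all named probe sets of 4.85, against 5.19 to 5.28 in the other controls. Without this array 16, 5 and 2 members rose and 3, 2 and 2 fell at 1, 4 and 8 weeks, with medians of 0.20, 0.07 and -0.05. In that fit 1428, 902 and 848 of the 15049 named probe sets rose and 2538, 1697 and 1508 fell. Control replicate 5 held the highest control value, and without it 38, 21 and 11 members rose, with medians of 0.60, 0.47 and 0.36. Among all named probe sets 1726, 1220 and 1094 rose without it. The median of adult muscle fibre genes, 23 of 26 listed ones measured, was also lowest among controls in replicate 3, at 7.80 against up to 10.46, and its range in injured animals was 6.97 to 9.55. Fewer muscle cells, less RNA per cell and, in control replicate 3, the lower level of the whole array cannot be told apart in whole tissue. Of these 23 muscle genes 1, 0 and 0 rose and 1, 1 and 2 fell at 1, 4 and 8 weeks, with list medians of 0.05, -0.33 and -0.42. For this list and those below, the shares of all named probe sets were 11.2%, 7.52% and 6.96% that rose. Those that fell were 10.2%, 5.46% and 4.65%. Myl3, which fell each time, was above the negative controls on no array of either group. Tnnc1, which rose, was above them on no control array, and Actn3, which fell at 8 weeks, on 1. Of 7 genes of embryonic and regenerating muscle 3 rose at 1 week, and their medians were 4.28 to 6.21 in controls and 5.64 to 7.25 at 1 week. Of 8 fibroblast genes 5, 3 and 1 rose at 1, 4 and 8 weeks, with array medians of 8.34 to 9.29 in controls and 8.82 to 10.49 in injured animals. Of 9 macrophage genes 2, 4 and 3 rose and 1, 0 and 0 fell, and their medians were 6.23 to 7.68 and 7.03 to 8.80. Of 6 cartilage genes 4, 3 and 4 rose, and their medians of 4.48 to 5.19 and 5.21 to 6.01 did not overlap, though 3 of the genes that rose each time were not above the negative controls in either group. Of 4 gland genes 2 fell at every time, with list medians of -1.70, -1.67 and -1.60 and array medians of 5.17 to 10.02 and 3.99 to 6.81. The part of these cells in the result was not tested.

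The control RNAs added for hybridization had a mean log2 signal of 8.84 to 9.59 on the control arrays and 9.94 to 10.44 on the injured arrays, and the background probe sets 2.60 to 2.90 and 3.17 to 3.61. Both measures separated control from injured arrays without overlap, so whatever sets them and the injury cannot be told apart. In a fit with the hybridization level as a covariate, 0 members passed in each comparison with control, with 12, 7 and 16 members at unadjusted p under 0.05, and the medians of the members were -0.31, -0.36 and -0.50, beside -0.14, -0.11 and -0.10 over all named probe sets. Of the 23 members that rose at 1 week, 16 kept less than 50% of their difference in that fit, 5 of them with a sign below 0. Uqcr10, Atp5mg, Ndufa13 and Cox7b had 0.05, 0.06, 0.17 and 0.27 at 1 week, and Ndufa7 had 0.52, 0.35 and 0.24 at the 3 times. Atp5if1 had 0.91, 0.66 and 0.63 (limma adjusted p = 0.18, 0.31 and 0.34), and Atp5f1d, which fell, had -1.49 at 1 week. Because no control array shared a level with an injured array, this fit cannot show how much of a difference would remain at an equal level. Differences between control and injured animals in the text below carry this limit, while the injury groups overlapped in both measures.

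**Figure D2:**
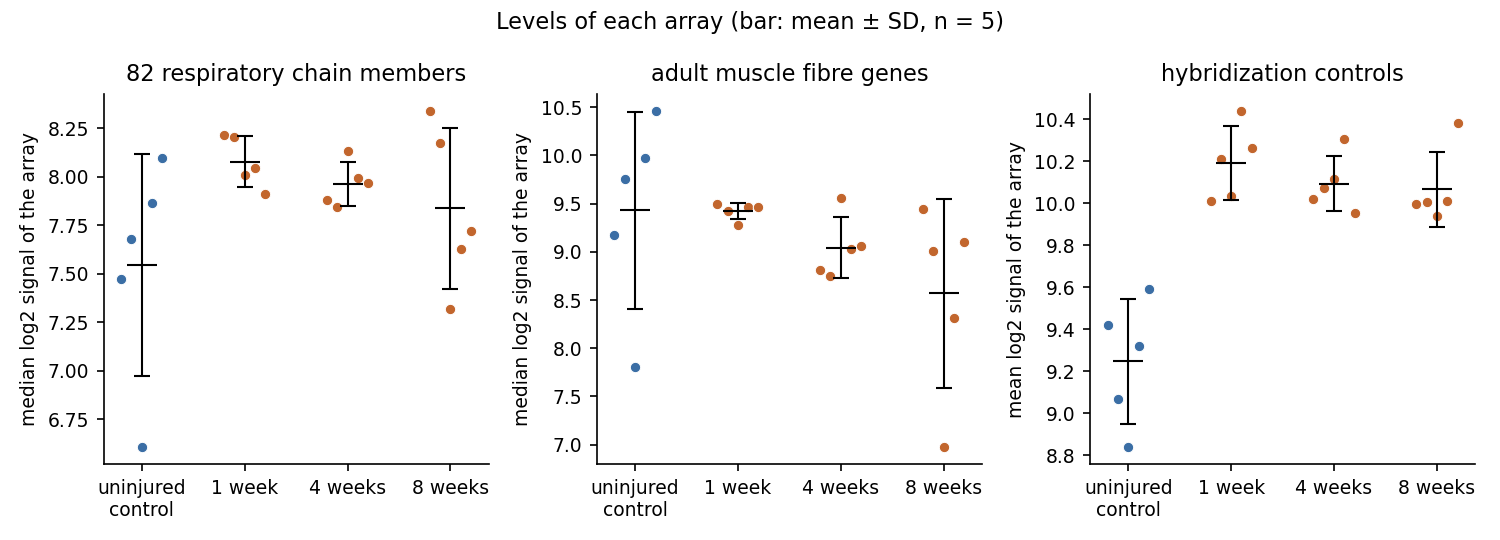
Levels of each array in the 4 groups (horizontal axis): the median log2 signal of the 82 members, that of adult muscle fibre genes, and the mean log2 signal of the hybridization controls. Points are animals and bars mean ± SD of 5; the lowest control point in the first 2 panels is replicate 3, at 6.60 and 7.80, and the third panel has no overlap between control and injured arrays.

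Complex I, the NADH dehydrogenase, gave 10 of the 23 members that rose at 1 week, 5 of 10 at 4 weeks and 3 of 4 at 8 weeks. These all belonged to its 25 measured accessory subunits, and 10 of these 25 rose at 1 week. Over all named probe sets 11.2%, 7.52% and 6.96% rose at the 3 times. Whether the complexes differed from each other was not tested. Of 6 measured core subunits 0 passed at any time, with 1, 2 and 1 of them higher at unadjusted p under 0.05, and whether the kinds of subunit differed was not tested. Ndufa7, an accessory subunit of complex I, stood above the controls at every time. Its log2 signal was 7.53, 7.36, 6.42, 7.47 and 7.93 in the 5 control animals and 8.64, 8.74, 8.66, 8.66 and 8.28 at 1 week. At 4 weeks it was 8.47, 8.47, 8.49, 8.23 and 8.13, and at 8 weeks 8.74, 8.41, 7.95, 8.00 and 8.02. Control replicate 3 was the lowest of the 20, and the lowest injured animals were still above the highest control in all 3 groups. Ndufa7 was higher by 1.25 (SE 0.21, limma adjusted p = 0.00031) at 1 week, a fold of 2.39, by 1.01 (SE 0.21, limma adjusted p = 0.0034) at 4 weeks and by 0.88 (SE 0.21, limma adjusted p = 0.0093) at 8 weeks. These calls held when any single array was left out.

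Ndufa6 is an accessory subunit that carries the mitochondrial acyl carrier protein. Control animals had log2 signals of 5.39, 5.65, 4.89, 5.50 and 6.27, and animals at 1 week 6.88, 7.15, 7.03, 7.22 and 6.50. The values were 6.43, 6.82, 6.91, 5.99 and 6.24 at 4 weeks and 7.12, 6.74, 5.79, 5.79 and 5.76 at 8 weeks. The 1-week animals lay above all controls, 4 weeks overlapped with the highest control, and at 8 weeks 3 of the 5 animals lay below the highest control. On every control array the signal was below the 95th percentile of 1153 negative control probe sets, and it was above it on 4 arrays at 1 week and 3 at 4 weeks, so only a bound can be given. With that percentile, or the signal where higher, as the level of each control array, Ndufa6 was at least 1.24-fold higher at 1 week (limma adjusted p = 0.00096). At 4 weeks it also rose, with no fold (limma adjusted p = 0.025), and at 8 weeks the adjusted p was 0.095. Its 4-week call was lost without control replicate 1 or 3 or 4-week replicate 2 or 3 (adjusted p = 0.056 to 0.066).

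Ndufa13, also known as GRIM-19, sits in the membrane part of complex I. Its log2 signal was 7.48, 7.69, 6.71, 7.87 and 8.17 in controls, 8.58, 8.60, 8.30, 8.45 and 8.31 at 1 week, 8.34, 8.47, 8.53, 8.41 and 8.36 at 4 weeks and, at 8 weeks, 8.95, 8.62, 7.88, 8.03 and 8.14. The injured animals lay above every control at 1 and 4 weeks and overlapped with controls at 8 weeks. The increase was 0.86 (SE 0.21, limma adjusted p = 0.0065), 0.84 (SE 0.21, limma adjusted p = 0.013) and 0.74 (SE 0.21, limma adjusted p = 0.028) at the 3 times. At 8 weeks the call was lost without control replicate 1 or 3 or 8-week replicate 1 or 2 (adjusted p = 0.055 to 0.083).

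Ndufa2, an accessory subunit with a thioredoxin-like fold, gave log2 signals of 4.91, 5.34, 4.54, 5.45 and 5.50 in controls and 5.80, 6.50, 6.17, 6.25 and 5.86 at 1 week. They were 5.97, 5.93, 5.95, 5.54 and 5.58 at 4 weeks and 6.44, 5.97, 5.75, 5.65 and 5.26 at 8 weeks. All 1-week and 4-week animals were above the controls, and 1 animal at 8 weeks was below 3 of them. This probe set was dim, above the negative control percentile on none of the 20 arrays, so no fold is given. Its signal rose at the 3 times (limma adjusted p = 0.0024, 0.042 and 0.04). The 4-week call was lost without any 1 of control replicates 1 to 3 and 4-week replicates 1 to 3 (adjusted p = 0.056 to 0.098), and the 8-week call without any 1 of control replicates 1 to 3 and 8-week replicates 1 to 4 (0.053 to 0.11). Both were lost in the fit with the replicate number as a block (0.054 and 0.052).

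The other complex I members that rose at 1 week were the accessory subunits Ndufa1 (0.74), Ndufa11 (0.76), Ndufb4 (0.71), Ndufb8 (0.74), Ndufb11 (0.58) and Ndufs5 (0.84), with differences in log2 signal in parentheses. Of these, Ndufa1 also rose at 4 weeks, by 0.67. The core subunits hold the flavin and the iron-sulfur clusters. Among them Ndufs1 and Ndufs7 had 1-week differences of -0.25 and -0.34, and Ndufs3 and Ndufs8 of 0.50 and 0.55, none past the threshold, with Ndufs8 close to Ndufb11, which passed. The larger accessory subunits Ndufa9 and Ndufa10 had -0.05 and -0.26. Members of one complex thus had differences on both sides of 0. Ndufa10l1 is a close copy of Ndufa10, so probes may be shared between them, and its difference was -0.15.

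**Figure D3:**
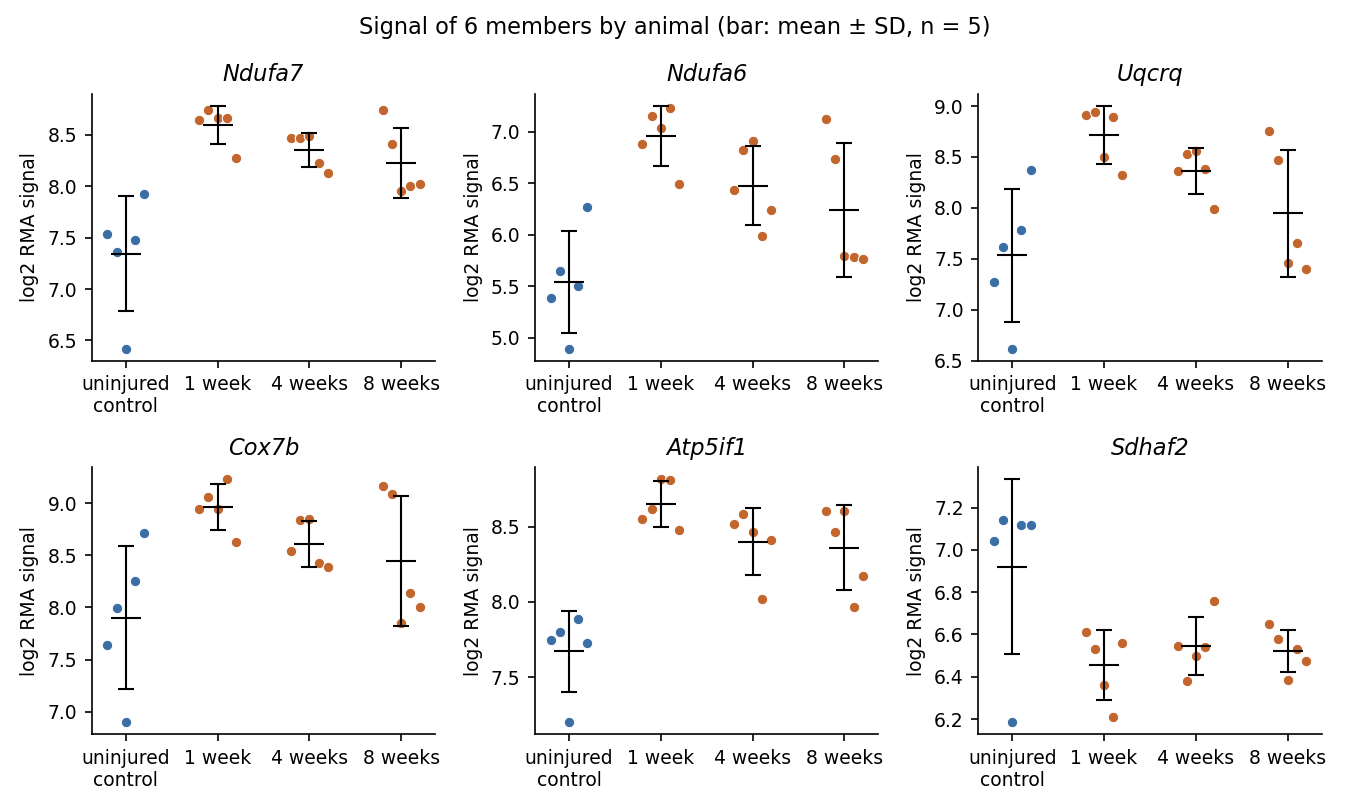
Log2 signal (vertical axis) of Ndufa7, Ndufa6, Uqcrq, Cox7b, Atp5if1 and Sdhaf2 in each animal of the 4 groups (horizontal axis). Points are animals and bars mean ± SD of 5; control replicate 3 is the lowest control point in every panel, and Ndufa7 and Atp5if1 have no overlap between controls and any injury group.

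Complex II, the succinate dehydrogenase, is the one complex with no subunit made in the mitochondrion itself, and it also works in the citric acid cycle. None of its 4 subunits passed in any comparison with control in limma's test, and 0 had an unadjusted p under 0.05. So few subunits cannot be set apart from the 11.2%, 7.52% and 6.96% of all named probe sets that rose. Sdha, which binds the flavin, had log2 signals of 7.92, 8.35, 7.31, 8.75 and 8.97 in controls and 8.12, 7.93, 7.85, 8.02 and 7.99 at 1 week. The 1-week animals lay inside the range of the controls. Its differences were -0.28, -0.15 and -0.24 at 1, 4 and 8 weeks, with 95% intervals of -0.79 to 0.24, -0.67 to 0.36 and -0.76 to 0.28. Sdhb, the iron-sulfur subunit, had a 1-week difference of 0.29 (95% interval -0.25 to 0.83). For the membrane anchors the 1-week values were -0.24 in Sdhc (-0.80 to 0.32) and -0.01 in Sdhd (-0.50 to 0.47).

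Complex III, which passes electrons from ubiquinol to cytochrome c, had 2 of 8 members higher at 1 week, 1 at 4 weeks and 0 at 8 weeks. Both were small subunits. The shares of all named probe sets that rose were 11.2%, 7.52% and 6.96%. Uqcrq, the ubiquinone-binding small subunit, had log2 signals of 7.27, 7.62, 6.62, 7.79 and 8.37 in controls, 8.91, 8.94, 8.50, 8.89 and 8.33 at 1 week, 8.37, 8.53, 8.56, 8.38 and 7.99 at 4 weeks and, at 8 weeks, 8.75, 8.47, 7.46, 7.65 and 7.40. Control replicate 5 overlapped with 1 animal at 1 week, and the 8-week animals spread over more than 1 unit. Uqcrq was higher by 1.18 (SE 0.28, limma adjusted p = 0.0042) at 1 week, a fold of 2.27, and by 0.83 (SE 0.28, limma adjusted p = 0.048) at 4 weeks. Its difference at 8 weeks was 0.41 (SE 0.28, limma adjusted p = 0.36). The 4-week call was lost without any 1 of control replicates 1 to 4, the 1-week animals, 4-week replicates 1 to 4 and 8-week replicate 4 (adjusted p = 0.052 to 0.11), and under the replicate block (0.051).

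Uqcr10, another small subunit of complex III, rose by 0.76 (SE 0.25, limma adjusted p = 0.034) at 1 week. Its call was lost without control replicate 1 or 3 or without any of 1-week replicates 1 to 4 (adjusted p = 0.054 to 0.090). Uqcr11 had a difference of 0.58 (SE 0.25, limma adjusted p = 0.1). The large core proteins Uqcrc1 and Uqcrc2 had 0.25 and 0.12, and the Rieske iron-sulfur protein Uqcrfs1 0.19, none past the threshold. Cytochrome c1 and somatic cytochrome c, 2 of 3 listed genes measured, did not pass either, with a median difference of 0.41 at 1 week.

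Complex IV, the cytochrome c oxidase, had 7 of 16 members higher at 1 week, 2 at 4 weeks and 0 at 8 weeks. Beside them 11.2%, 7.52% and 6.96% of all named probe sets rose. Cox7b, a small membrane subunit, had log2 signals of 7.64, 8.00, 6.90, 8.26 and 8.71 in controls, 8.95, 9.07, 8.94, 9.23 and 8.63 at 1 week, 8.55, 8.84, 8.85, 8.43 and 8.38 at 4 weeks and, at 8 weeks, 9.16, 9.09, 7.85, 8.14 and 8.00. Control replicate 5 lay above 1 animal at 1 week, and all other controls lay below the 1-week group. Cox7b rose by 1.06 (SE 0.28, limma adjusted p = 0.0092) at 1 week, a fold of 2.09. At 4 and 8 weeks the differences were 0.71 (SE 0.28, limma adjusted p = 0.092) and 0.55 (SE 0.28, limma adjusted p = 0.21).

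Cox7a2l, a relative of the small subunit Cox7a2 that joins complexes III and IV in supercomplexes, had log2 signals of 7.64, 7.85, 7.11, 7.70 and 7.91 in controls and 8.35, 8.47, 8.34, 8.44 and 8.29 at 1 week. The groups did not overlap. It rose by 0.74 (SE 0.16, limma adjusted p = 0.0027) at 1 week and by 0.53 (SE 0.16, limma adjusted p = 0.033) at 4 weeks, where the call was lost without control replicate 1, 3 or 4 or 4-week replicate 1, 2 or 3 (adjusted p = 0.051 to 0.081). The remaining complex IV members that rose at 1 week were Cox6a1 (0.56), Cox6b1 (0.60), Cox7a2 (0.74), Cox8a (0.78) and Ndufa4l2, a dim one. Cox8a also rose at 4 weeks, by 0.67 (SE 0.19, limma adjusted p = 0.021), and lost that call without 4-week replicate 2 (0.064).

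Muscle forms and general forms of complex IV subunits were set against each other within each animal, as the change of their difference between groups. The pairs were Cox6a2 with Cox6a1, Cox8b with Cox8a, Cox4i2 (the lung form) with Cox4i1, and Ndufa4l2, a relative that is induced by low oxygen, with Ndufa4. Cox6a2, the heart and muscle form, had log2 signals of 9.68, 10.18, 8.11, 10.41 and 10.68 in controls, 10.23, 10.18, 9.76, 9.82 and 9.84 at 1 week, 9.86, 9.63, 10.11, 10.03 and 9.83 at 4 weeks and, at 8 weeks, 10.54, 9.99, 7.18, 9.13 and 9.87. Control replicate 3 and 8-week replicate 3 stood far below the rest. Cox6a1, the general form, had 8.37, 8.39, 7.61, 8.48 and 8.23 in controls and 8.64, 8.80, 8.98, 8.70 and 8.76 at 1 week, without overlap. Its rise at 1 week was 0.56 (SE 0.15, limma adjusted p = 0.011).

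The difference of Cox6a2 minus Cox6a1 changed by -0.41 at 1 week, -0.35 at 4 weeks and -0.82 at 8 weeks compared with control, with two-sided exact permutation p of 0.29, 0.37 and 0.29. Cox8b minus Cox8a changed by 0.13, -0.18 and -0.28. Cox4i2 and Ndufa4l2 were above the negative control percentile on none of the arrays and Cox8b on 14 of 20, so that the Cox6a pair alone had both genes above it throughout, and no change is given for the Cox4i2 and Ndufa4l2 pairs. For the Cox6a pair 0 of 6 comparisons passed, with 0 at unadjusted p under 0.05. Over the 4 pairs and 6 comparisons, 0 of 24 passed, 12 of them with a gene never above the percentile, the smallest exact permutation p was 0.28, and the adjusted p was at least 0.85. The smallest p that 5 animals against 5 allow is 0.0079. The dim signal of Ndufa4l2 itself rose at 1 week (limma adjusted p = 0.019), a call lost without control replicate 2 (0.056) or 1-week replicate 4 (0.065). Cox7a1, the muscle partner of Cox7a2, was not analysed here.

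**Figure D4:**
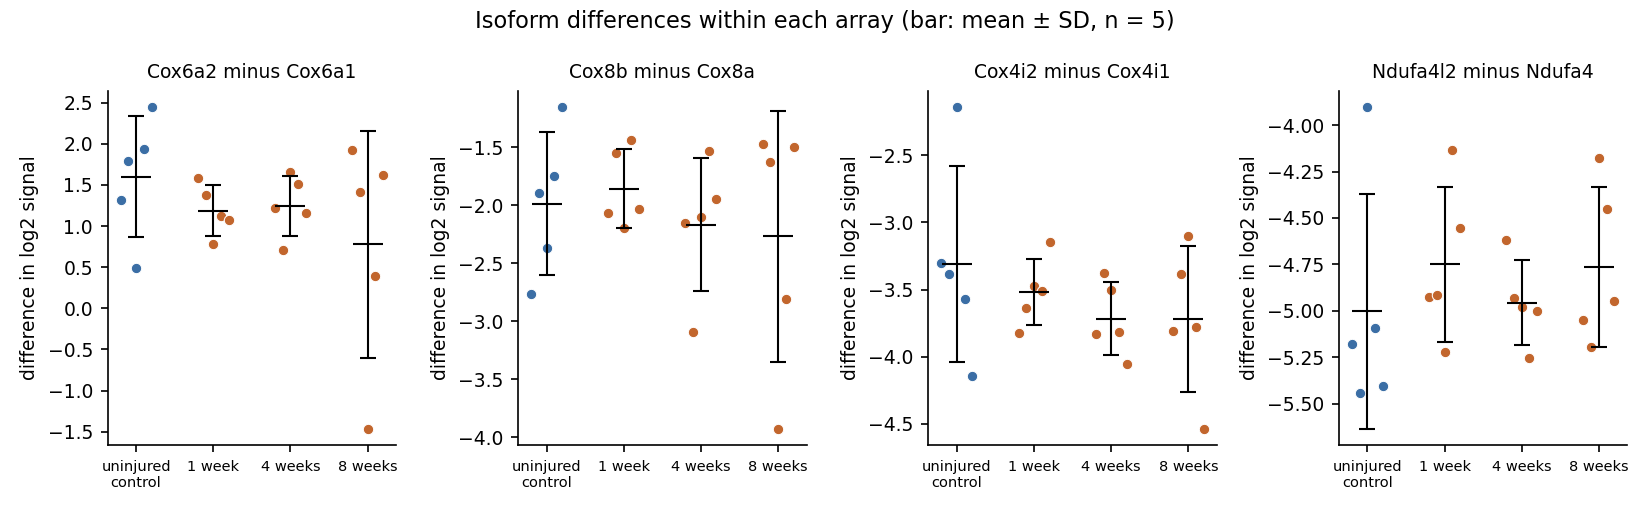
Difference in log2 signal between the 2 genes of each isoform pair within each animal (vertical axis), in the 4 groups (horizontal axis). Points are animals and bars mean ± SD of 5; the height of a panel depends on the probe sets and only shifts between groups can be read, all groups overlap, and Cox4i2 and Ndufa4l2 were above the negative control percentile on no array.

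Complex V, the ATP synthase, had 4 of 14 members higher and 1 lower at 1 week, 2 higher at 4 weeks and 1 higher at 8 weeks. Among all named probe sets 11.2%, 7.52% and 6.96% rose at these times, and 10.2% fell at 1 week. Atp5if1, the inhibitor that binds the enzyme when it would split ATP, had log2 signals of 7.75, 7.80, 7.20, 7.88 and 7.73 in controls and 8.55, 8.62, 8.81, 8.81 and 8.47 at 1 week. At 4 weeks they were 8.52, 8.59, 8.46, 8.02 and 8.41, and at 8 weeks 8.60, 8.47, 8.60, 7.97 and 8.17. The highest control was below the lowest animal of each injury group. Atp5if1 rose by 0.98 (SE 0.16, limma adjusted p = 0.00021) at 1 week, a fold of 1.97, by 0.73 (SE 0.16, limma adjusted p = 0.0046) at 4 weeks and by 0.69 (SE 0.16, limma adjusted p = 0.0073) at 8 weeks. The 3 calls held when any single array was left out.

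Atp5mg, subunit g of the membrane part, rose by 0.96 (SE 0.23, limma adjusted p = 0.0051) at 1 week and by 0.81 (SE 0.23, limma adjusted p = 0.022) at 4 weeks, a call lost without control replicate 1 (0.058). Atp5po, the stalk protein that confers oligomycin sensitivity, rose by 0.90 (SE 0.25, limma adjusted p = 0.013) at 1 week, and Atp5mc1, a gene of the proton-carrying ring, by 0.75. The catalytic subunits of the head, Atp5f1a and Atp5f1b, had 1-week differences of 0.06 (95% interval -0.42 to 0.55) and -0.12 (-0.67 to 0.42), neither past the threshold.

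Atp5f1d, the delta subunit of the central stalk, fell. Its log2 signal was 8.39, 8.47, 7.33, 8.76 and 8.84 in controls, 7.90, 7.76, 7.71, 7.23 and 7.55 at 1 week, 7.75, 7.52, 7.87, 8.15 and 7.94 at 4 weeks and, at 8 weeks, 8.28, 7.93, 7.46, 7.69 and 7.92. Control replicate 3 lay among the injured animals, and the other 4 controls lay above every animal of all injury groups. The difference was -0.73 (SE 0.22, limma adjusted p = 0.023) at 1 week, -0.51 (SE 0.22, limma adjusted p = 0.13) at 4 weeks and -0.50 (SE 0.22, limma adjusted p = 0.15) at 8 weeks. The 1-week call was lost without control replicate 2, 4 or 5 or 1-week replicate 4 (adjusted p = 0.054 to 0.071), and without control replicate 3 the 4-week and 8-week values were -0.77 and -0.76 and passed (0.0047 and 0.0058).

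Assembly factors gave 8 members, 6 for complex I and 2 for complex II, of which 0 rose and 1 fell at 1 week. Of all named probe sets 11.2% rose and 10.2% fell at 1 week, shares from which so few members cannot be set apart. Sdhaf2, which attaches the flavin to Sdha, had log2 signals of 7.04, 7.14, 6.19, 7.12 and 7.12 in controls, 6.61, 6.53, 6.36, 6.21 and 6.56 at 1 week, 6.54, 6.38, 6.50, 6.54 and 6.76 at 4 weeks and, at 8 weeks, 6.65, 6.58, 6.39, 6.53 and 6.47. Again 4 controls lay above every injured animal, and control replicate 3 lay below all of them. On no array at 1 week was the signal above the negative control percentile, so the fall is a bound of at least 1.14-fold (limma adjusted p = 0.036) at 1 week. The differences at 4 and 8 weeks were -0.38 (SE 0.16, limma adjusted p = 0.11) and -0.40 (SE 0.16, limma adjusted p = 0.1). Its 1-week call was lost without any of control replicates 1, 2, 4 and 5 and 1-week replicates 2, 3 and 4 (0.055 to 0.097), and without control replicate 3 its 4-week and 8-week differences were -0.56 and -0.58 and passed (0.0021 and 0.0018). Sdhaf1, which helps to place iron-sulfur clusters in Sdhb, and the 6 complex I factors did not pass at any time in limma's test, with 1 complex I factor higher at unadjusted p under 0.05 at 8 weeks and 0 at 1 and 4 weeks.

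Gene span, the distance from first to last exon, was taken from the RefSeq annotation of GRCr8. The members had a median span of 7173.5 bases, against 17808 for all named genes. The 41 members with the shorter spans included 17 that rose and 0 that fell at 1 week, with a median difference of 0.55, and the 41 with the longer spans 6 that rose and 2 that fell, with a median of 0.29. Spearman's rho between span and 1-week difference was -0.41 over the 82 members and -0.31 over 15043 named genes, as a description over genes that share their arrays. When all named genes were cut into 10 groups of equal size by span, 12.3% rose and 1.53% fell at 1 week in the group with the shortest spans (median 945 bases), 21.5% rose and 3.92% fell in the next (median 3149 bases), and 5.45% rose and 19.1% fell in the group with the longest spans. In the third group (4560 to 7957 bases), which held 26 of the members, 18.8% rose and 5.52% fell. The share that rose was highest in the second group and not in the shortest one. At 4 weeks 15% of the second group and 14% of the third rose, and at 8 weeks 14% and 11.8%. The share of members that rose was 28.0%, 12.2% and 4.88% at 1, 4 and 8 weeks. The part of gene span in the members' differences was not tested, and the split was chosen after the values were seen.

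**Figure D5:**
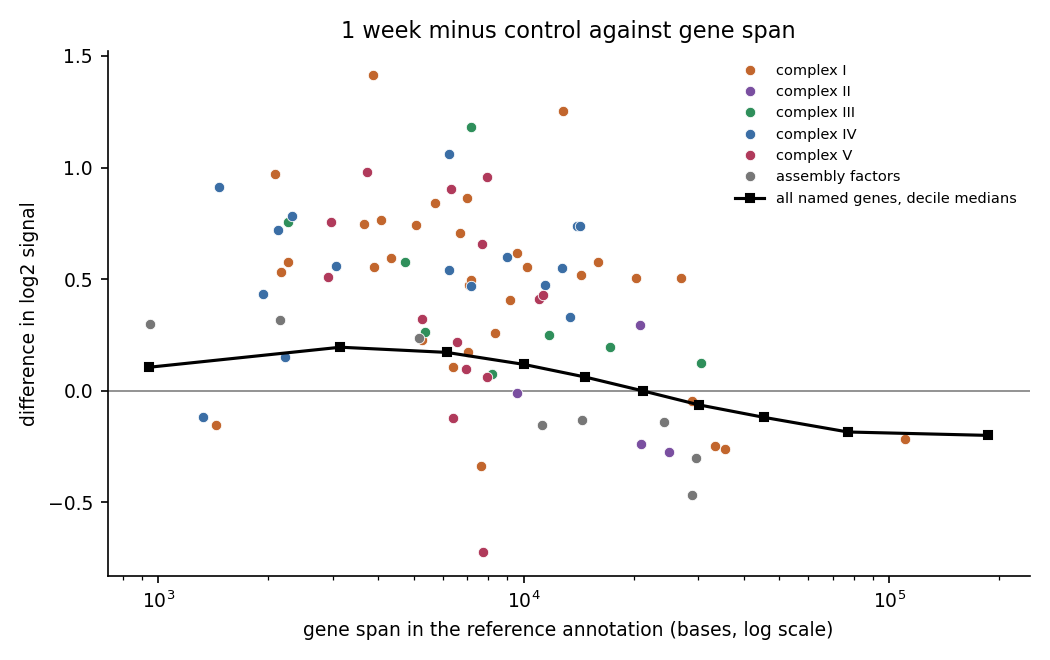
Difference in log2 signal between 1 week and control (vertical axis) of each member against the span of its gene in bases (horizontal log axis), coloured by complex. Squares joined by a line are medians over 10 equal groups of all named genes by span, which are 0.10 at 945 bases, 0.19 at 3149 bases and -0.20 in the group with the longest spans.

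Other genes of mitochondrial energy supply were counted from lists in the same fit. Over all named probe sets 11.2%, 7.52% and 6.96% rose at 1, 4 and 8 weeks, and 10.2%, 5.46% and 4.65% fell. Of 66 measured proteins of the mitochondrial ribosome, which makes the subunits encoded in mitochondrial DNA, 23 rose at 1 week, 16 at 4 weeks and 8 at 8 weeks, and 0 fell in any of them. Among those that rose at 1 week were Mrpl27, at least 1.56-fold, Mrpl35, with a difference of 0.95, and the dim Mrps16 and Mrpl44. Of the 23, 13 were not above the negative control percentile in either group, and the list's median difference was 0.24, 0.24 and 0.19. Of 24 measured assembly factors of complexes III and IV outside the naming rule, 2 rose at 1 week, Uqcc2 (0.97) and Uqcc3 (at least 1.11-fold), which help to make cytochrome b. In the same list 3 fell, Cox16 (-1.88), which takes part in building the copper site of complex IV, Pet100, another complex IV assembly protein, and Cox15, a heme A synthesis protein, both of them not above the percentile on any control or 1-week array.

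Among regulators of mitochondrial gene expression, the genes that passed were lower after injury. Of 17 measured ones 0 rose and 5, 3 and 2 fell at the 3 times, with list medians of -0.27, -0.12 and -0.04. Of all named probe sets 10.2%, 5.46% and 4.65% fell. At 1 week the 5 that fell were Ppargc1a, the coactivator that drives mitochondrial biogenesis (-1.07), Gabpa, the DNA-binding part of GA-binding protein, and Ppargc1b, Tfb1m and Esrrg. Ppargc1a was above the percentile on 4 control arrays and 1 of the 1-week arrays. Gabpa was above it on 3 control arrays and no 1-week array. Ppargc1b, a coactivator, Tfb1m, which modifies mitochondrial ribosomal RNA, and Esrrg, an oestrogen-related receptor, were above it on no control or 1-week array, so no fold is given. Of 11 measured enzymes of the citric acid cycle, Suclg1 rose (0.51) and Ogdh fell (-1.07) at 1 week, and the median was -0.23. Among all named probe sets 11.2% rose and 10.2% fell at 1 week. Of 10 carriers of nucleotides, phosphate and the outer membrane, Ucp2, a carrier of the inner membrane, fell at 1 week (-0.84) and 0 rose, with a median of -0.19. Subunits encoded in mitochondrial DNA were not analysed here.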

How the data were processed

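The authors deposited log2 RMA signals of 24871 probe sets on 20 arrays. RMA corrects background and summarises probes within the values, so these steps were not repeated. The methods name global scaling in the manufacturer's software on a Clariom S array, and the labels name a Clariom D array and Affymetrix Expression Console. The genome build was not given in the sources used here. Groups came from the sample labels, which name separate animals. Names came from the platform annotation, and the 9822 probe sets without a single name entered an alternative fit alone.

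The deposited log2 values were fitted with limma 3.58.1 in R 4.3.3 (lmFit, eBayes), with 4 groups in 1 model, no filter and no block, after a run on simulated data. P-values were adjusted by Benjamini-Hochberg across 15049 tests for each of 6 comparisons, at 0.05. Isoform pairs were compared by two-sided exact permutation over 252 assignments. The members and lists were chosen with earlier results of these data known. Members named were the isoform pairs, the complex II subunits, the 3 with the smallest adjusted p in each complex and comparison with control, the largest changes, and up to 4 genes a list. Other members, Ppargc1a and Cox15 were named after their values were seen. Where no array of the dimmer group was above the 95th percentile of 1153 negative control probe sets, the fold is a bound against that percentile or the signal, whichever was higher on each array, a rule added after the values were seen. Gene spans and start regions came from RefSeq (GRCr8). Figures were drawn with matplotlib.

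Alternatives were quantile normalization, median centring, removal of the dimmest 25% among the named probe sets, a replicate block, only the groups compared, all probe sets other than controls, a hybridization covariate, removal of each array in turn, and the one-way analysis of the methods.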

Additional observations from a re-analysis of the deposited data

Results flagged for a closer look

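Some animals stood apart from the other 4 of their group, with a gap to the nearest of them above Dixon's 95% critical value of 0.71 of the whole range. Among 124 member and group combinations examined, 6 did so, and 4 of the 6 were control replicate 3. Chance alone gives such a gap in about 1 in 20 groups.

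In control replicate 3 the log2 signal of Cox6a1 was 7.61, with the other controls at 8.23 to 8.48. Cox8a in the same animal was 7.45, with the others at 8.40 to 8.65. Atp5if1 was 7.20 there, against 7.73 to 7.88. Sdhaf2, one of the members that fell after injury, was 6.19 there, against 7.04 to 7.14 in the other controls. Ndufa7 was 8.28 in 1-week replicate 5, against 8.64 to 8.74 in the other 1-week animals. Ndufa4 was 9.76 in 4-week replicate 3, above the other 4-week animals at 9.31 to 9.41.

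The median of cytosolic ribosomal protein genes was 8.73 in control replicate 3, against 9.23 to 9.32 in the other controls, and 9.23 in 8-week replicate 5, against 9.51 to 9.62.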

How the results depend on the processing

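Numbers of arrays limit the precision, and 45 of 82 members lay above the 95th percentile of the negative control probe sets on every array. The counts are those at 1, 4 and 8 weeks compared with control, where 23, 10 and 4 members rose, 2, 0 and 0 fell and 10 passed over the 4 groups. With quantile normalization 35, 19 and 11 rose, 2, 1 and 1 fell and 24 passed. With median centring 29, 13 and 6 rose, 2, 1 and 1 fell and 16 passed. With only the groups compared 18, 4 and 2 rose and 0 fell. With the hybridization covariate, which cannot be separated from injury, 0 rose, 0 fell and 0 passed over the 4 groups in limma's test. The methods' one-way analysis gave 7 in place of 10. Among the 15049 named probe sets 1681, 1131 and 1048 rose and 1528, 821 and 700 fell in the main fit. Quantile normalization gave 2004, 1327 and 1220 that rose and 1779, 1228 and 1086 that fell. Median centring gave 1954, 1104 and 1026 that rose and 1832, 1348 and 1180 that fell. Only the groups compared gave 1430, 570 and 693 that rose and 1199, 386 and 417 that fell. Without control replicate 3 and 8-week replicate 3 together, a setting chosen after seeing the data, 17, 5 and 4 members rose and 4, 3 and 2 fell. Among all named probe sets 1402, 890 and 643 rose and 2552, 1708 and 1228 fell in that setting. Leaving out each array in turn gave 16 to 38, 4 to 21 and 2 to 11 members that rose, 0 to 3, 0 to 2 and 0 to 2 that fell and 6 to 18 over the 4 groups. At 4 weeks the count fell to 4 without control replicate 1, 5 without control replicate 3, and 6, 4 and 5 without 4-week replicates 1, 2 and 3. In those fits, in the same order, 862, 902, 1016, 763 and 921 of all named probe sets rose. At 8 weeks the count of members fell to 2 without control replicate 1 or 3 or 8-week replicate 1 or 2, and it rose to 11 without control replicate 5. In those fits, in the same order, 762, 848, 846, 692 and 1094 of all named probe sets rose. The dim filter and all probe sets other than controls gave 25 and 23 members that rose at 1 week. Of all probe sets tested there, 1495 of 11287 and 2901 of 23188 rose. No member passed between injury groups, and no isoform pair passed, when any single array was left out. The cause of these differences was not tested.

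Groups share replicate numbers, and deviations of same-numbered arrays correlated at -0.27 to 0.32 (6 of 30 pairs over 0.1, median -0.05). For 120 differently numbered pairs they correlated at -0.36 to 0.38 (median 0.01). The numbers were therefore not used as pairs in the main fit. Such correlations cannot show whether same-numbered arrays shared a processing step. With the replicate block 23, 8 and 3 members rose, 2, 0 and 0 fell and 10 passed over the 4 groups. Among all named probe sets 1573, 956 and 913 rose and 1421, 720 and 589 fell in that fit. No call turned to the opposite direction in these settings.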

Other observations

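Glycolysis and the response to low oxygen, which supply or steer energy metabolism beside the respiratory chain, held few genes that passed. Over all named probe sets 11.2%, 7.52% and 6.96% rose at 1, 4 and 8 weeks, and 10.2%, 5.46% and 4.65% fell. Of 18 measured glycolysis genes Pfkl, the liver form of phosphofructokinase, rose at 1, 4 and 8 weeks (limma adjusted p = 0.0022, 0.0035 and 0.0028), and 0 fell. Pfkl was above the 95th percentile of the negative controls on no control array, which gives a bound of at least 1.04-fold, 1.05-fold and 1.08-fold. Of 9 measured genes of the hypoxia response, Egln3, a prolyl hydroxylase that marks the hypoxia-inducible factor for breakdown, fell at all 3 times (limma adjusted p = 0.00093, 0.049 and 0.049). It was above that percentile on 1 control array and no injured array, so no fold is given. Higd1a, a small protein of the inner mitochondrial membrane, rose at 1 week (limma adjusted p = 0.013) and was above the percentile on no control or 1-week array.

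Cytosolic ribosomal proteins were counted after the values of the respiratory chain had been seen, as another set of small proteins from short genes. Of 68 measured genes 45, 42 and 38 rose and 1, 0 and 0 fell at the 3 times. Beside them 11.2%, 7.52% and 6.96% of all named probe sets rose, and 10.2%, 5.46% and 4.65% fell. The part of gene span in this was not tested. The list's median difference in log2 signal was 0.57, 0.54 and 0.49.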
